A study of Mus musculus with 4 samples.

Results

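Rab GTPases are described here in mouse bone-marrow-derived macrophages, macrophages grown in culture from marrow precursors. The members are the genes whose symbol reads Rab, a number, and at most a letter and a further digit, which gave 59 of the 55536 gene rows. Rab-like genes, pseudogenes and antisense genes, whose symbols are longer, are left out. The rule reads symbols and no measured value, though it was set with earlier results of these data known.

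Rab proteins are small GTPases that mark membranes and steer vesicle traffic. Each is held in the cytosol by a GDP dissociation inhibitor, is loaded with GTP on its membrane by an exchange factor (GEF), recruits effectors such as tethers and motors, and is switched off by a GTPase-activating protein (GAP). In a macrophage they organise the passage of a phagosome from its early, Rab5-bearing form to its late, Rab7-bearing form, the return of receptors to the surface, and the secretion of cytokines and granules.

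RNA came from primary macrophages of C57BL/6J mice in 1 group of 4 libraries, which the labels number as biological replicates 1 to 4. The cultures were exposed to 100 ng/ml lipid A for 12 h and rested without it for another 12 h. They were then taken at 0 min of a second exposure to 100 ng/ml lipid A. Lipid A is the part of bacterial lipopolysaccharide that Toll-like receptor 4 senses, though other label fields call the agent lipoprotein A. Age and sex were not recorded. The 4 biosamples share 1 donor identifier, and any p-value reflects only how these libraries vary. Untreated cells are not among the samples, and none of the values measures what lipid A did.

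Replicates 3 and 4 were each made from 4 read files, per the deposited notes, against 6 each for replicates 1 and 2. This is the feature by which libraries are compared here, and what lies behind it is not stated. Expected gene counts totalled 48875472 and 57126810 in replicates 3 and 4, against 25594340 and 27384162 in replicates 1 and 2. Mitochondrial RNA took 3.34% and 3.00% of the counts in replicates 3 and 4, against 0.778% and 1.16% in replicates 1 and 2. Of the 12 macrophage marker genes, all 12 averaged at least 10 TPM, with Lyz2, a lysozyme, at a mean of 9726 TPM. The 8 neutrophil markers summed to 78.5 and 6.96 TPM in replicates 3 and 4, against 89.4 and 14.0 TPM in replicates 1 and 2, and Ly6g and Retnlg among them were at 0. Their sum was thus higher in replicates 1 and 3 than in replicates 2 and 4, a division that crosses the one by read files. Markers of T and NK cells, B cells, fibroblasts, mast cells, dendritic cells and erythroid cells summed to at most 4.21 TPM per list in any library. In RNA of whole cultures, fewer cells of a type and less RNA per cell cannot be told apart.

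Most Rab genes were expressed. By mean TPM, a level corrected for transcript length and library size, 43 members averaged at least 1, 32 at least 10, 23 at least 50 and 10 at least 100. In every library, 41 members stood at or above 1 TPM and 16 stood below it. Rab37 and Rab38 lay on either side of that level depending on the library. All members together made up 0.363 ± 0.0326% of the TPM of a library (SD, n = 4), and the 10 highest supplied 66.7 ± 4.95% of that.

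**Figure D1:**
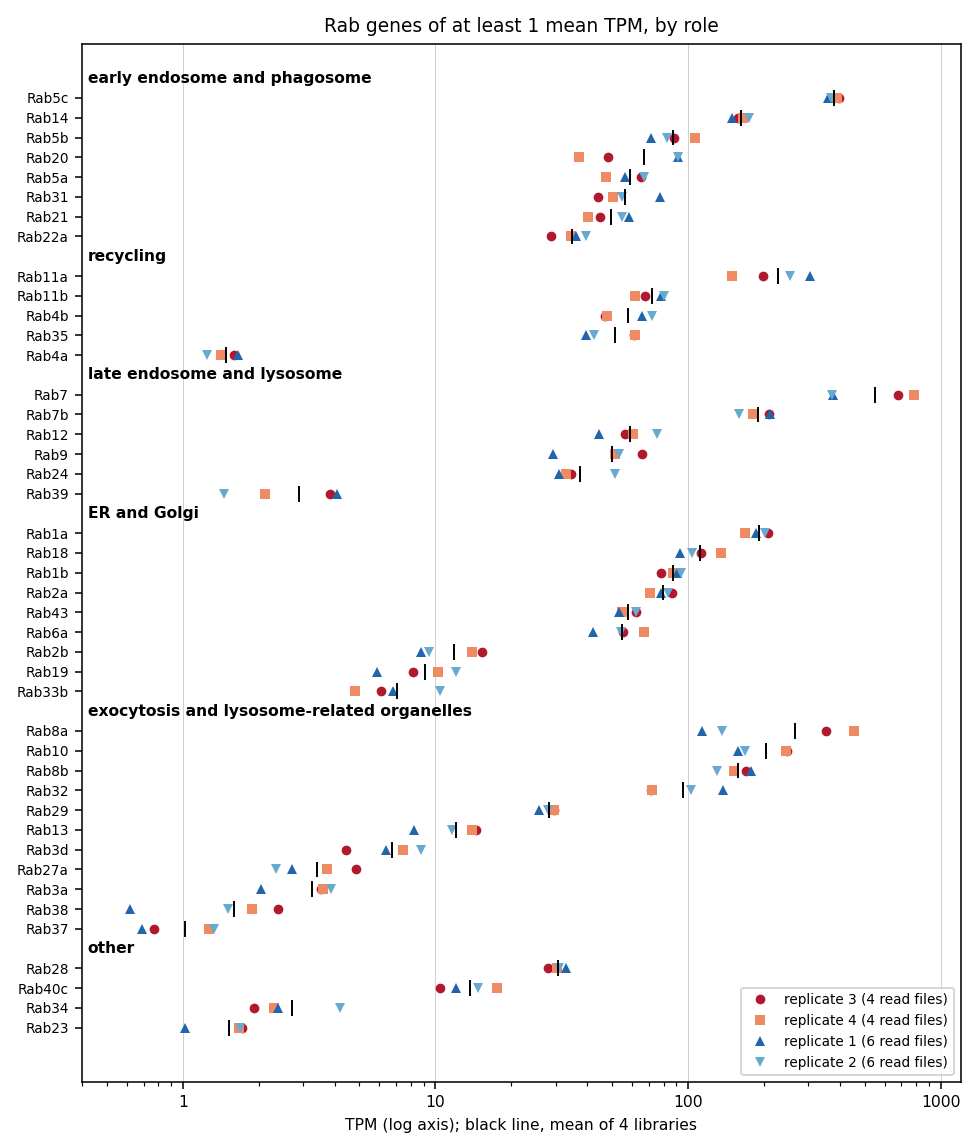
TPM of the 43 Rab genes of at least 1 mean TPM in each of the 4 libraries, on a log axis, grouped by role. Points are libraries and the black line is their mean. Rab7, at 373 to 787 TPM, stands highest, and Rab8a shows replicates 3 and 4 well apart from replicates 1 and 2.

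Early endosome and phagosome Rabs were led by Rab5c, whose product drives fusion of early endosomes and young phagosomes. Rab5c had 397 and 388 TPM in replicates 3 and 4, against 359 and 368 TPM in replicates 1 and 2. Its coefficient of variation was 4.68% by TPM, the lowest of the tested members, and 7.71% by CPM (counts scaled to library size), where Rab14 varied least. Its close relatives were lower in each of the libraries. Rab5b had 87.7 and 107 TPM in replicates 3 and 4, against 71.6 and 82.8 TPM in replicates 1 and 2. Rab5a had 65 and 47.2 TPM in replicates 3 and 4, against 56.2 and 66.8 TPM in replicates 1 and 2. Rab5c therefore supplied most of the Rab5 RNA.

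The Rab5 genes encode closely related proteins, and their coding sequences were compared here over a short stretch only. Their nucleotide-binding P-loop, the stretch that grips the phosphates of GTP, is shown from the coding sequence in mm10, with the 8 P-loop codons in capitals.
Rab5c (chr11:100719961-100720014, minus strand): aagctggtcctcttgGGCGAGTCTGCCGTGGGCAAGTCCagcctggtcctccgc
Rab5a (chr17:53483976-53484029, plus strand): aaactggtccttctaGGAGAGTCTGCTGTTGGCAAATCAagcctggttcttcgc
Rab5b (chr10:128686794-128686847, minus strand): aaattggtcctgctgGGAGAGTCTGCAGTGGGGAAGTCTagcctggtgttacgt
Over these 54 bases Rab5c differs from Rab5a at 11 and from Rab5b at 12. The P-loop was then searched in frame in the main coding transcript of each gene. The search used a pattern of 8 codons, not the bases shown. The pattern began with a glycine codon and ended with codons for glycine, lysine, and serine or threonine, with any codons between. It was present in 54 of 59 members and in 5.71% of 10277 protein-coding genes of at least 1 mean TPM. The 5 transcripts without a match were those of Rab11b, Rab43, Rab6a, Rab40c and Rab40b. This says only that the pattern is not in those annotated coding sequences.

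Rab14, which serves traffic between the Golgi, endosomes and phagosomes, came next. Rab14 had 158 and 165 TPM in replicates 3 and 4, against 150.0 and 174 TPM in replicates 1 and 2 (162 ± 10.3 TPM, SD, n = 4). Rab20, a Rab of maturing phagosomes, had 48.3 and 37.2 TPM in replicates 3 and 4, against 91.6 and 90.9 TPM in replicates 1 and 2. The Rab20 values in replicates 3 and 4 lay below both values in replicates 1 and 2. Rab31, which acts between the trans-Golgi network and endosomes, had 43.9 and 50.3 TPM in replicates 3 and 4, against 77.3 and 54.7 TPM in replicates 1 and 2. Its relative Rab22a, of early endosomes, had 28.8 and 34.5 TPM in replicates 3 and 4, against 36 and 39.4 TPM in replicates 1 and 2. Rab31 thus exceeded Rab22a in all 4 libraries. Rab21, an early endosomal Rab that carries integrins, had 44.9 and 40.4 TPM in replicates 3 and 4, against 58.2 and 55 TPM in replicates 1 and 2. Rab17, known from epithelial cells, was at 0 TPM in replicates 1, 3 and 4 and at 0.08 TPM in replicate 2.

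Recycling Rabs return internalised receptors to the surface. Rab11a, of the recycling endosome, had 199 and 149 TPM in replicates 3 and 4, against 305 and 253 TPM in replicates 1 and 2. Rab11b had 67.8 and 62 TPM in replicates 3 and 4, against 77.9 and 80.2 TPM in replicates 1 and 2. Both genes were lower in replicates 3 and 4 than in either of replicates 1 and 2. The fast-recycling Rab4b had 46.9 and 48 TPM in replicates 3 and 4, against 65.6 and 71.8 TPM in replicates 1 and 2, whereas Rab4a had only 1.6 and 1.42 TPM in replicates 3 and 4, against 1.66 and 1.25 TPM in replicates 1 and 2. Rab35, of a fast recycling route that also shapes actin, had 61.4 and 61.8 TPM in replicates 3 and 4, against 39.3 and 42.5 TPM in replicates 1 and 2. Its coding transcripts alone went the other way, at 29.5 and 27.3 TPM in replicates 3 and 4, against 36.2 and 38.3 TPM in replicates 1 and 2. Rab25, an epithelial member of the Rab11 group, had no counts in any library, and Rab15 stayed between 0.03 and 0.3 TPM.

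Late endosome and lysosome Rabs held the most abundant member. Rab7, which directs fusion of late endosomes and phagosomes with lysosomes, had 676 and 787 TPM in replicates 3 and 4, against 373 and 373 TPM in replicates 1 and 2. Rab7b, a relative placed between late endosomes and the Golgi, had 209 and 181 TPM in replicates 3 and 4, against 211 and 159.5 TPM in replicates 1 and 2. Rab7 spread widely, its 2 higher values falling in replicates 3 and 4, while Rab7b did not separate the libraries. Rab9, which returns cargo from late endosomes to the Golgi, had 66 and 51.2 TPM in replicates 3 and 4, against 29.3 and 53.4 TPM in replicates 1 and 2. Rab24, linked to autophagy, had 34.3 and 32.8 TPM in replicates 3 and 4, against 30.9 and 51.4 TPM in replicates 1 and 2. Rab12, linked to lysosomal delivery of receptors, ranged over 44.2 to 75.2 TPM. Rab39 had 3.84 and 2.11 TPM in replicates 3 and 4, against 4.09 and 1.45 TPM in replicates 1 and 2, with replicates 1 and 3 above replicates 2 and 4. Rab9b was without counts, and Rab39b did not exceed 0.04 TPM.

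ER and Golgi Rabs were led by Rab1a. Rab1a, which takes vesicles from the ER to the Golgi, had 207 and 168 TPM in replicates 3 and 4, against 186 and 202 TPM in replicates 1 and 2. Its relative Rab1b had 78.3 and 87.2 TPM in replicates 3 and 4, against 90.5 and 93.9 TPM in replicates 1 and 2. Rab1a exceeded Rab1b in each library. Rab18, of ER and lipid droplets, had 113 and 136 TPM in replicates 3 and 4, against 93.2 and 103 TPM in replicates 1 and 2. Rab2a, of the ER to Golgi boundary, had 86.3 and 70.7 TPM in replicates 3 and 4, against 78 and 83.7 TPM in replicates 1 and 2, and Rab2b had 15.3 and 13.9 TPM in replicates 3 and 4, against 8.78 and 9.43 TPM in replicates 1 and 2. Rab2a overlapped between the libraries so divided, while both Rab2b values of replicates 3 and 4 exceeded those of replicates 1 and 2. Rab6a, of Golgi exit and retrograde traffic, had 55.1 and 67.2 TPM in replicates 3 and 4, against 42 and 54.2 TPM in replicates 1 and 2. Rab43 had 62.3 and 54.8 TPM in replicates 3 and 4, against 53.1 and 62.1 TPM in replicates 1 and 2 and shares most of its sequence with the readthrough gene model Gm45140, so its level is uncertain. The Golgi Rab33b, which binds the autophagy machinery, had 6.06 and 4.79 TPM in replicates 3 and 4, against 6.82 and 10.4 TPM in replicates 1 and 2. Rab19 ranged over 5.87 to 12.1 TPM, while Rab6b, Rab33a and Rab30 stayed at or below 0.53 TPM.

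Exocytosis and lysosome-related organelle Rabs were led by Rab8a in mean TPM, but within libraries it led only in replicates 3 and 4. By coding transcripts alone Rab8a averaged 60.7 TPM, below Rab10 at 204, Rab8b at 157 and Rab32 at 94.3 TPM. Rab8a, which delivers vesicles to the surface and acts at macrophage ruffles, had 353 and 454 TPM in replicates 3 and 4, against 114 and 136 TPM in replicates 1 and 2. Rab8b had 169 and 152 TPM in replicates 3 and 4, against 178 and 130.1 TPM in replicates 1 and 2. Rab8a TPM varied more between libraries than that of any other tested member, with a coefficient of variation of 62.9%, but the figure was 38.3% by CPM and 31.5% by TPM of coding transcripts alone. Rab8b averaged 157 ± 21.1 TPM (SD, n = 4). Rab10, which in mouse macrophages carries Toll-like receptor 4 to the surface, had 247 and 243 TPM in replicates 3 and 4, against 158 and 167 TPM in replicates 1 and 2. Rab32, of lysosome-related organelles and mitochondria, had 71.2 and 71.8 TPM in replicates 3 and 4, against 137 and 103 TPM in replicates 1 and 2. Rab10 was higher and Rab32 lower in both replicates 3 and 4 than in replicates 1 and 2. Rab29, linked to lysosomes and the kinase LRRK2, had 29.4 and 29.4 TPM in replicates 3 and 4, against 25.7 and 27.9 TPM in replicates 1 and 2 and was among the steadiest members.

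Secretory granule Rabs were scarce. Rab27a, which docks lysosome-related granules, had 4.84 and 3.71 TPM in replicates 3 and 4, against 2.7 and 2.34 TPM in replicates 1 and 2. Rab3d had 4.42 and 7.45 TPM in replicates 3 and 4, against 6.37 and 8.77 TPM in replicates 1 and 2, and Rab3a, best known from synaptic vesicles, had 3.52 and 3.58 TPM in replicates 3 and 4, against 2.04 and 3.87 TPM in replicates 1 and 2. Both Rab27a values of replicates 3 and 4 were above those of replicates 1 and 2, while Rab3d and Rab3a overlapped. Rab38, the melanosome relative of Rab32, had 2.39 and 1.88 TPM in replicates 3 and 4, against 0.62 and 1.51 TPM in replicates 1 and 2. Rab37 ranged over 0.69 to 1.33 TPM and Rab13, of cell junctions, over 8.21 to 14.5 TPM. Rab27b, Rab44 and Rab3b stayed at or below 0.42 TPM, and Rab26 and Rab3c had no counts in any library.

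The remaining Rabs have roles outside these routes or less settled ones. Rab40c, whose product joins a ubiquitin ligase, had 10.5 and 17.5 TPM in replicates 3 and 4, against 12 and 14.7 TPM in replicates 1 and 2. Rab28, of cilia and photoreceptors, ranged over 27.9 to 33.0 TPM. Rab34, of phagosome and cilium formation, ranged over 1.92 to 4.18 TPM. Rab23, a cilium-linked inhibitor of Hedgehog signalling, had 1.71 and 1.67 TPM in replicates 3 and 4, against 1.02 and 1.69 TPM in replicates 1 and 2. Rab42, Rab36 and Rab40b did not reach 1 TPM in any library, at 0.54 to 0.98, 0.2 to 0.69 and 0 to 0.02 TPM. The 4 members without a count, Rab25, Rab26, Rab3c and Rab9b, could each hold up to 0.0614 and 0.0525 CPM in replicates 3 and 4, against up to 0.117 and 0.110 CPM in replicates 1 and 2, the level of 3 counts, which covers counting error only.

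Summed by role, early endosome and phagosome Rabs supplied 24.8 ± 2.94% of Rab TPM and late endosome and lysosome Rabs 24.3 ± 3.85% (SD, n = 4). Exocytic Rabs supplied 21.2 ± 3.44%, ER and Golgi Rabs 16.9 ± 1.37%, recycling Rabs 11.5 ± 3.06% and the others 1.38 ± 0.196%. The early and late roles thus differed by less than the spread of either. Late Rabs took 27.0% and 28.2% of Rab TPM in replicates 3 and 4, against 20.8% and 21.2% in replicates 1 and 2. Early Rabs took 22.5% and 22.0% in replicates 3 and 4, against 27.0% and 27.6% in replicates 1 and 2. The turn in order rested on Rab7. Without it, late Rabs summed to 369.96 and 327 TPM in replicates 3 and 4, against 319 and 341 TPM in replicates 1 and 2. Early Rabs summed to 873 and 869 TPM in replicates 3 and 4, against 899.8 and 931 TPM in replicates 1 and 2, a smaller step than that of their share. Without Rab8a, exocytic Rabs summed to 548 and 529 TPM in replicates 3 and 4, against 519 and 458 TPM in replicates 1 and 2.

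**Figure D2:**
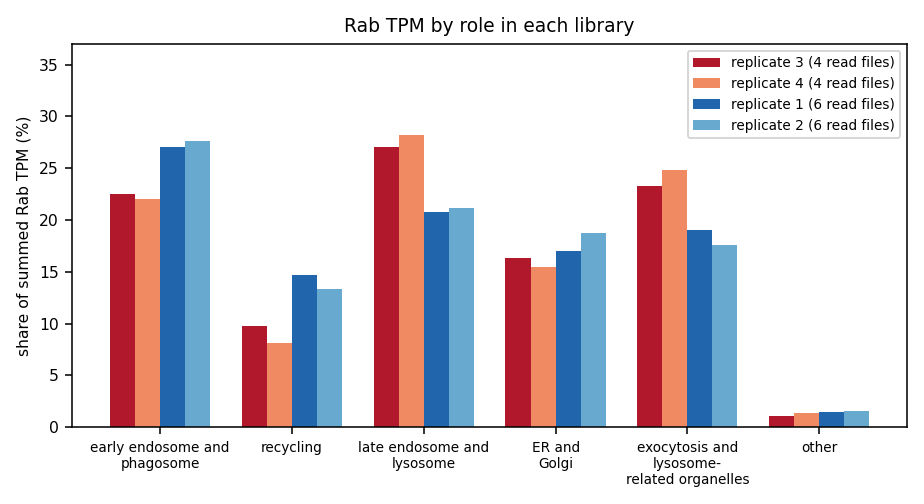
Share of the summed Rab TPM (%) held by each role in replicates 3, 4, 1 and 2, as bars from 0. Late endosomal and exocytic shares are higher in replicates 3 and 4, and early endosomal and recycling shares higher in replicates 1 and 2. The late endosomal difference is mostly that of Rab7 and the exocytic one mostly that of Rab8a.

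Only coarse ranks held across the libraries. Of the 42 pairs of neighbours in the order of mean TPM, 4 differed in the same direction in all 4 libraries by more than the SD of their log2 ratio. These were Rab8b over Rab18, Rab21 over Rab24, Rab22a over Rab28 and Rab29 over Rab40c. The other neighbours did not differ beyond their spread, so the order between them is an order of means. The median coefficient of variation of the 44 members tested between libraries was 23.04%, against 24.6% for all 11991 genes tested. Rab8a (62.9%), Rab38 (46.6%) and Rab39 (45.0%) varied most by TPM, and Rab5c (4.68%), Rab29 and Rab14 (6.36% each) least. By CPM the order differed, with Rab39 (49.96%), Rab38 (46.7%) and Rab20 (43.6%) highest and Rab14 (2.55%), Rab29 (4.21%) and Rab35 (5.13%) lowest. The tested members were more abundant than tested genes at large, at a median of 52.9 TPM against 13.7 TPM.

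Paralogs were unequal. For 16 pairs of related Rabs, the log2 ratio of TPM + 1 kept its sign in all 4 libraries for 15. Rab5c exceeded Rab5a by 2.68 ± 0.24 and Rab5b by 2.12 ± 0.19 on the log2 scale (SD, n = 4). Rab2a exceeded Rab2b by 2.68 ± 0.39, Rab11a exceeded Rab11b by 1.60 ± 0.29, Rab7 exceeded Rab7b by 1.46 ± 0.56 and Rab1a exceeded Rab1b by 1.11 ± 0.20. In expected counts, which are not divided by length, Rab11a had 3387 and 3184 in replicates 3 and 4, against 3625 and 4230 for Rab11b. In replicates 1 and 2 it had 3259 and 2850, against 2000 and 2225 for Rab11b. The steepest ratio among pairs with both genes above 1 mean TPM was that of Rab32 over Rab38, at 5.21 ± 0.90. Rab4a stood below Rab4b, at -4.55 ± 0.36, and Rab22a below Rab31, at -0.67 ± 0.28. The ratio of Rab3d over Rab3a was 0.86 ± 0.43. With 4 libraries the smallest p that the exact two-sided sign-flip permutation test can give is 0.13 after rounding, which these 15 pairs reached. Their Benjamini-Hochberg adjusted value over the 16 pairs was 0.133.

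In 5 further pairs the second gene averaged below 1 TPM. Rab9 over Rab9b averaged 5.61 ± 0.49, Rab6a over Rab6b 5.32 ± 0.14 and Rab40c over Rab40b 3.85 ± 0.29. Rab33b over Rab33a averaged 2.77 ± 0.32 and Rab27a over Rab27b 2.02 ± 0.27. These ratios are limited by the pseudocount of 1 TPM. Of the second genes Rab6b alone, with 17 to 101 counts per library, passed the filter on low counts.

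Rab8b over Rab8a was the pair that turned. Its exact sign-flip permutation p was 0.375, adjusted and unadjusted. Its log2 ratio was -1.06 and -1.57 in replicates 3 and 4, against 0.64 and -0.06 in replicates 1 and 2. Counting TPM of protein-coding transcripts alone, Rab8b exceeded Rab8a in all 4 libraries, by 1.40 ± 0.51. The P-loop stretches of the pair, a short part of their sequence, are shown with the P-loop codons in capitals.
Rab8b (chr9:66919553-66919606, minus strand): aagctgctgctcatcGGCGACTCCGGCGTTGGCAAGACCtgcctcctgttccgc
Rab8a (chr8:72161386-72161439, plus strand): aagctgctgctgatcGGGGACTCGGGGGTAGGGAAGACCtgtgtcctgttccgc
They differ at 8 of 54 bases.

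**Figure D3:**
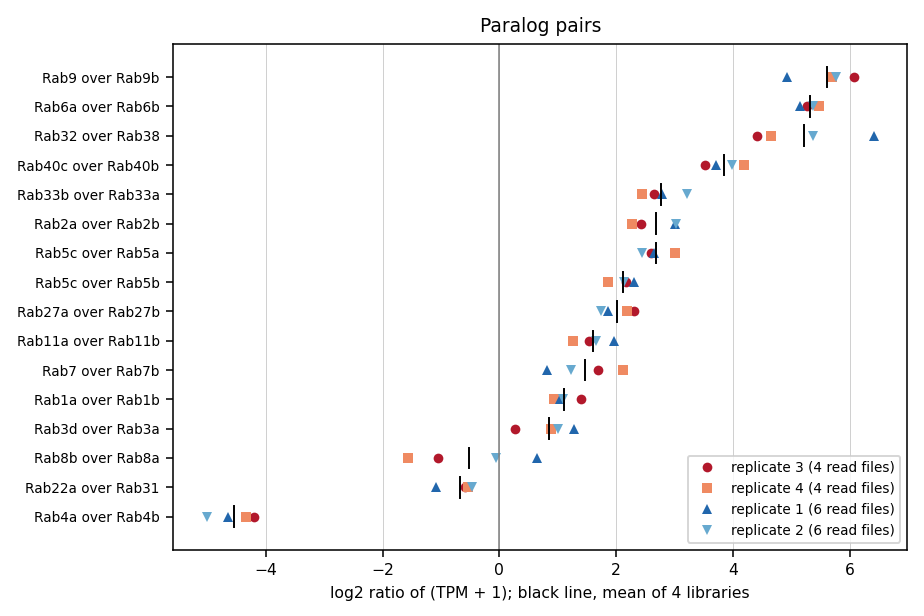
Log2 ratio of (TPM + 1) for 16 paralog pairs in each library, with the mean as a black line and 0 as a grey line. All pairs but Rab8b over Rab8a keep to 1 side of 0, and for that pair replicates 3 and 4 lie left of replicates 1 and 2.

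Sequence shared with other genes limits some of these levels. Of the 31-base words in the leading transcript of each member of at least 1 mean TPM, the median share found in transcripts of any other gene on the same strand was 0%. Another Rab gene never held more than 2.64% of a member's words. The overlaps that exceeded 10%, in 8 members, were with readthrough genes and pseudogenes or other non-Rab gene models. Gm45140, a gene model with readthrough transcripts, holds 96.6% of the words of Rab43, and Gm21983, another such model, holds 82.3% of those of Rab4b. Gm45140 had 10.2 and 12.4 TPM in replicates 3 and 4, against 2.03 and 0.92 TPM in replicates 1 and 2, and Gm21983 was listed at 0. For Rab11b the pseudogene Rab11b-ps2 shares 32.4% of the words, and for Rab7 the pseudogene Rab7-ps1 shares 17.8%. These pseudogenes averaged 4.74 and 2.26 TPM. The levels of Rab43, Rab4b and Rab11b are therefore uncertain as to how reads were divided.

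Gene TPM adds up all transcripts, coding or not. For most of the 43 members of at least 1 mean TPM, 1 transcript dominated. The leading transcript held a median of 93.0 ± 1.72% of the gene's TPM (SD over 4 libraries), 23 members averaged at least 90%, and 5 fell below 50%. In 35 of the 43 the same transcript led in all 4 libraries. By mean TPM over the 4 libraries, Rab8a was the only member led by a noncoding transcript. That did not hold in every library. A noncoding transcript also led Rab35 in replicates 3 and 4, and Rab18 and Rab40c in replicate 4. That of Rab35 held 52.0% and 55.9% of Rab35 TPM in replicates 3 and 4, against 8.08% and 9.85% in replicates 1 and 2. In replicate 4 noncoding transcripts together held 31.7% of Rab18 TPM and 38.4% of Rab40c TPM. By expected counts the coding Rab8a-201 led Rab8a, with 77.6% and 78.0% in replicates 3 and 4, against 89.5% and 89.9% in replicates 1 and 2.

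Rab8a-202, annotated as a retained intron of 542 bases on mm10 chromosome 8, held 81.1% and 81.2% in replicates 3 and 4, against 62.8% and 62.5% in replicates 1 and 2 of Rab8a TPM. The kallisto-layout table gave 79.8% and 80.6% in replicates 3 and 4, against 69.6% and 67% in replicates 1 and 2. By expected counts its share was 22.4% and 22% in replicates 3 and 4, against 10.5% and 10.1% in replicates 1 and 2. TPM divides by length, so this short transcript weighs far more in TPM than in counts, and it shares 414 of its 542 bases with exons of the coding Rab8a-201. Only 128 bases, which begin at the end of the fifth exon, are its own. They stand in capitals in its last exon, the part of the RNA by which it can be told from Rab8a-201.
Rab8a-202 (chr8:72175840-72176057, plus strand): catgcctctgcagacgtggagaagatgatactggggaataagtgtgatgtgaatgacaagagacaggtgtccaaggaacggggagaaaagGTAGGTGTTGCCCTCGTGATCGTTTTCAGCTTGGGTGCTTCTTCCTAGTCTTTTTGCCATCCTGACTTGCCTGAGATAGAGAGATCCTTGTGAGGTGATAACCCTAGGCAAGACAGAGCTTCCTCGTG
Coding Rab8a transcripts alone had 65.9 and 85 TPM in replicates 3 and 4, against 41.5 and 50.1 TPM in replicates 1 and 2. On that measure Rab8a ranked 15 among the Rabs instead of 3, and its higher values still fell in replicates 3 and 4.

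Rab35 divided between a coding transcript and Rab35-202, annotated for nonsense-mediated decay, the pathway that destroys RNA with an early stop. Rab35-202 held 52% and 55.9% in replicates 3 and 4, against 8.08% and 9.85% in replicates 1 and 2 of Rab35 TPM. The kallisto-layout table gave 56.8% and 63% in replicates 3 and 4, against 34.9% and 31.6% in replicates 1 and 2. By expected counts its share was 23% and 25.8% in replicates 3 and 4, against 2.39% and 2.93% in replicates 1 and 2. In all 3 measures the share was higher in replicates 3 and 4. Within its span Rab35-202 differs from Rab35-201 by 4 bases at the start of the third exon. The junction of exons 2 and 3 is shown for both transcripts up to the early stop, with the 4 bases in capitals in Rab35-201 and the in-frame stop codon in capitals in Rab35-202.
Rab35-201 (chr5:115637747-115640148, plus strand): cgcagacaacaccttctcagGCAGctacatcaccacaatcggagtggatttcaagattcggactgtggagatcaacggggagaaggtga
Rab35-202 (chr5:115637747-115640148, plus strand): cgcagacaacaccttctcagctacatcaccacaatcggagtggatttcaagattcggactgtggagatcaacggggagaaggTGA
The coding sequence, stop included, is 606 bases in Rab35-201 and 168 bases in Rab35-202.

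Rab7 RNA was shared between coding transcripts. Rab7-205 held 50.7% and 38.6% in replicates 3 and 4, against 92.5% and 95.3% in replicates 1 and 2 of Rab7 TPM, and Rab7-201 held 46.9% and 51.1% in replicates 3 and 4, against 0% and 0% in replicates 1 and 2. The kallisto-layout table gave Rab7-201 56.5% and 66.7% in replicates 3 and 4, against 27% and 24.9% in replicates 1 and 2. The listed 0 of the first table in replicates 1 and 2 was thus not shared by the second, though both put Rab7-201 higher in replicates 3 and 4. The first exons of the 2 transcripts begin 25.5 kb apart on chromosome 6, and the transcripts carry the same 624-base coding sequence. Rab7-205 has 1032 bases that Rab7-201 lacks and Rab7-201 has 148 that Rab7-205 lacks.

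**Figure D4:**
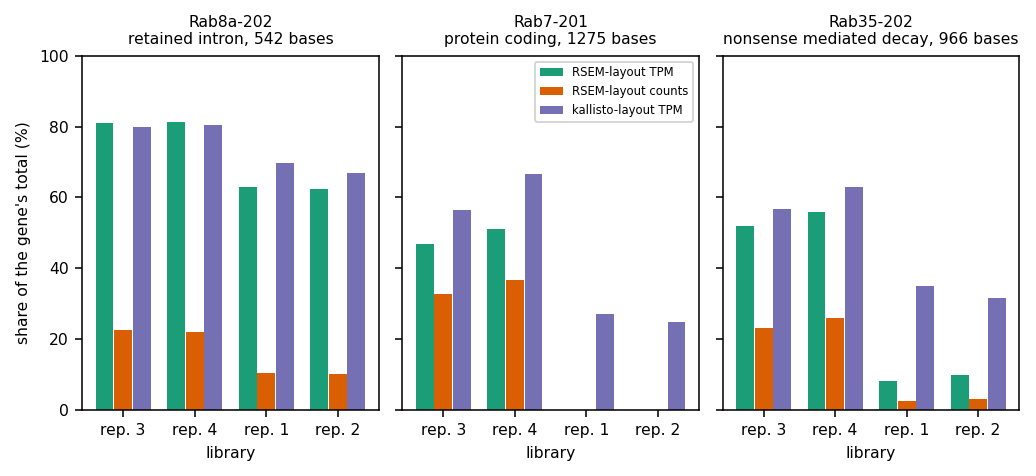
Share (%) of the gene's TPM in the RSEM-layout table, of its expected counts, and of its TPM in the kallisto-layout table that fell to Rab8a-202, Rab7-201 and Rab35-202 in replicates 3, 4, 1 and 2. Every share is higher in replicates 3 and 4, and shares by counts are at or below those by TPM in the same table.

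Other members were spread over several transcripts. The 3 members of at least 5 mean TPM with the lowest leading shares were Rab40c (31.4%), Rab18 (33.9%) and Rab11a (41.5%). For Rab40c the leading Rab40c-201 held 9.07% and 0% in replicates 3 and 4, against 51.7% and 64.9% in replicates 1 and 2. For Rab18, the coding Rab18-203 held 35.8% and 31.6% in replicates 3 and 4, against 34.4% and 33.8% in replicates 1 and 2. For Rab11a, the 595-base coding Rab11a-201 held 30.9% and 33.7% in replicates 3 and 4, against 54.1% and 47.3% in replicates 1 and 2, and by expected counts the longer Rab11a-208 held 57.6% and 61.2% in replicates 3 and 4, against 54.5% and 56.8% in replicates 1 and 2. Rab40c and Rab11a thus divided their transcripts differently in replicates 3 and 4, and Rab18 did not for this transcript. The noncoding share of Rab18 TPM was 22.2% and 31.7% in replicates 3 and 4, against 16.8% and 20.1% in replicates 1 and 2. That of Rab11a was 31.5% and 26.9% in replicates 3 and 4, against 7.32% and 14.6% in replicates 1 and 2. For Rab40c, replicates 3 and 4 also differed from each other, with Rab40c-205 at 7.74% and 70.6% of expected counts. Rab43 had its 2 main coding transcripts in opposite order, with Rab43-201 at 69.6% and 71.2% in replicates 3 and 4, against 22.9% and 33% in replicates 1 and 2. Noncoding transcripts took 11.6% and 13.3% of all Rab TPM in replicates 3 and 4, against 4.65% and 6.35% in replicates 1 and 2. Without Rab8a the figures were 4.55% and 4.43% in replicates 3 and 4, against 2.57% and 3.97% in replicates 1 and 2. For all protein-coding genes they were 11.8% and 12.3% in replicates 3 and 4, against 6.86% and 8.11% in replicates 1 and 2.

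Rab levels in the RSEM-layout and kallisto-layout tables, made from the same libraries, differed by an offset that was not the same in every library. The median log2 ratio of RSEM-layout over kallisto-layout TPM across the 43 members was -0.0054 and -0.0077 in replicates 3 and 4, against 0.42 and 0.40 in replicates 1 and 2. For all 11435 genes of at least 1 mean TPM it was -0.030 and -0.035 in replicates 3 and 4, against 0.38 and 0.35 in replicates 1 and 2. The members' offset was thus that of genes at large, and 37 of the 43 averaged within 0.25 of 0. Largest in favour of the first table were Rab43 at a mean of 0.35, Rab2b at 0.32 and Rab38 at 0.29. On the other side were Rab23 at -0.67, Rab22a at -0.04 and Rab11a at -0.0047. Rab23 had 2.06 and 3.07 TPM in replicates 3 and 4, against 2.4 and 2.13 TPM in replicates 1 and 2 in the kallisto-layout table.

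The libraries were then compared by number of read files, replicates 3 and 4 over replicates 1 and 2, with edgeR's quasi-likelihood test on expected counts and Benjamini-Hochberg adjustment at 0.05 over all genes tested. This compares libraries and not conditions. Depth and the mitochondrial share moved with the same division, and their part in it was not tested. Of 59 members, 44 passed the filter on low counts. A call was made for 2 of the 44 (4.55%), against 5.80% of the 11991 genes tested. The share of members called was thus near that of all genes.

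Rab8a (ENSMUSG00000003037.16, chr8:72161200-72183904, plus strand, mm10) rose and Rab20 (ENSMUSG00000031504.6, chr8:11453518-11478710, minus strand) fell in replicates 3 and 4. Genes called higher made up 2.08% of all genes tested, and genes called lower 3.72%. Rab8a averaged 293 CPM in replicates 3 and 4, against 147 in replicates 1 and 2. Its log2 fold change in counts was 0.94 (SE 0.19, edgeR adjusted p = 0.0492). Rab20 averaged 34 CPM in replicates 3 and 4, against 70.3 in replicates 1 and 2. Its log2 fold change was -1.09 (SE 0.20, edgeR adjusted p = 0.0431). Both adjusted p-values lay close to the threshold. With 1 replicate left out at a time, the log2 fold change was 0.77 to 1.11 for Rab8a and -1.30 to -0.90 for Rab20. Those fits leave a lone library on 1 side, so they cannot show whether either call holds. On kallisto-layout counts the edgeR adjusted p of Rab8a was 0.0545, and with offsets for GC content and length that of Rab20 was 0.0628.

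Other members stayed short of the threshold. At an unadjusted p under 0.05, 11 of the 44 members (25%) differed by edgeR, against 28.5% of all genes tested. Rab11a had a log2 fold change of -0.97 (SE 0.24, edgeR adjusted p = 0.0682), and Rab4b one of -0.55 (SE 0.14, edgeR adjusted p = 0.0758). Rab7 had one of 0.63 (SE 0.20, edgeR adjusted p = 0.113). None of these passed. The fold changes of the 44 members were positive for 22 and negative for 22, with a median of 0.0015, against -0.014 over all genes tested. In absolute size their median was 0.30, against 0.36 over all genes tested. TPM of replicates 3 and 4 did not overlap those of replicates 1 and 2 for 26 of the 44 members (59.1%), against 56.5% of all genes tested.

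By role, none of the 5 tested recycling Rabs had a positive fold change, and their median was -0.17. Of the 11 tested exocytic Rabs 9 were positive, with a median of 0.20. The early endosomal and phagosomal Rabs had 3 positive of 8 (median -0.14), the late endosomal ones 4 of 6 (median 0.034) and the ER and Golgi ones 5 of 10 (median 0.0053). These counts describe the libraries and were not tested as groups. The signs depended on the scaling and on single libraries. Of the recycling Rabs, Rab35 and Rab4a lay close to 0, at -0.02 and -0.03, and 2 of the 5 were positive with effective length offsets, with GC and length offsets, with limma on TPM, without the filter and without replicate 1 or 4. Over all settings run, the positive count was 7 to 9 for exocytic Rabs, 2 to 4 for early ones, 2 to 5 for late ones and 4 to 7 for ER and Golgi ones.

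DESeq2, the other tool, called 7 of the 44 members (15.9%), against 16.2% of the genes it gave an adjusted p. Rab8a, Rab10 and Rab7 were called higher in replicates 3 and 4, and Rab11a, Rab32, Rab40c and Rab20 lower. Among them Rab11a had a DESeq2 adjusted p of 0.006 and Rab32 one of 0.0437. As with edgeR, the members' share was close to that of all genes.

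Among the 43 tested members of at least 1 mean TPM, fold changes in TPM and in counts parted for 3 by over 0.5 on the log2 scale. Rab8a had a log2 ratio of mean TPM + 1 of 1.68, against 0.94 in counts. Rab35 had 0.58 in TPM and -0.02 in counts. Rab40c had 0.06 in TPM and -0.74 in counts. In all 3 the effective length, the length by which counts are divided, was shorter in replicates 3 and 4. For Rab8a it was 1032 and 1029 bases in replicates 3 and 4, against 1750.45 and 1762 bases in replicates 1 and 2. The direction of Rab40c thus depended on whether counts or TPM were read.

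**Figure D5:**
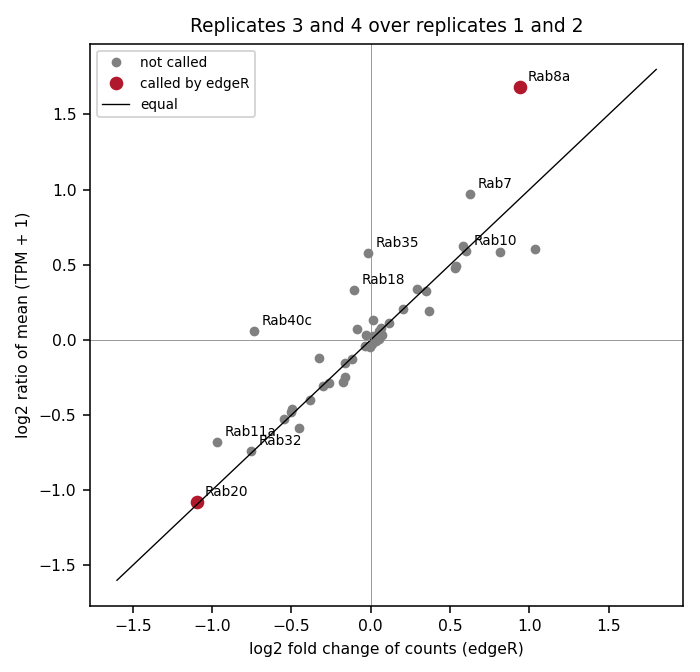
Log2 ratio of mean (TPM + 1) on the vertical axis against the log2 fold change of counts (edgeR) on the horizontal axis, replicates 3 and 4 over replicates 1 and 2, for the 43 tested members of at least 1 mean TPM. Most points follow the line of equality, and Rab8a, Rab35, Rab40c, Rab18 and Rab7 lie above it. Red marks Rab8a and Rab20, the members called by edgeR.

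Proteins that load, extract and read Rabs were drawn from a list of 143 partner genes, all found. Of these, 117 averaged at least 1 TPM and 81 at least 10 TPM. The GDP dissociation inhibitors and prenylation factors were the most abundant role, with 11 of 11 above 1 TPM and a median of 34.2 TPM. Gdi2, a GDP dissociation inhibitor, had 533 and 425 TPM in replicates 3 and 4, against 471 and 385 TPM in replicates 1 and 2. Arl6ip5, a membrane protein of the PRA1 family, had 127 and 156 TPM in replicates 3 and 4, against 101 and 151 TPM in replicates 1 and 2. Gdi2 exceeded Arl6ip5 in all 4 libraries.

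Exchange factors numbered 33, of which 28 averaged at least 1 TPM, with a median of 19.7 TPM. Rab3il1, an exchange factor for Rab8, had 98.3 and 97.5 TPM in replicates 3 and 4, against 92.1 and 71.8 TPM in replicates 1 and 2. Ccz1, which with Mon1 forms the Rab7 exchange factor, had 94.8 and 81.3 TPM in replicates 3 and 4, against 75.5 and 92.5 TPM in replicates 1 and 2. Dennd1a, an exchange factor for Rab35, had 95.3 and 89.6 TPM in replicates 3 and 4, against 70.8 and 67 TPM in replicates 1 and 2. All 3 stood well above 10 TPM in every library. GTPase-activating proteins numbered 35, 31 of them at or above 1 TPM, with a median of 10.4 TPM. Tbc1d13, a GAP for Rab35, had 126 and 140.3 TPM in replicates 3 and 4, against 191 and 190.0 TPM in replicates 1 and 2. Tbc1d20, a GAP for Rab1, had 43.2 and 48.3 TPM in replicates 3 and 4, against 40.8 and 57.5 TPM in replicates 1 and 2, and Tbc1d10b had 34.8 and 38.8 TPM in replicates 3 and 4, against 45.6 and 56.4 TPM in replicates 1 and 2. Tbc1d13 was the highest of these 3 in each library.

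Effectors were the largest role, with 47 of 64 at or above 1 TPM and a median of 12.8 TPM. Myo5a, a myosin motor that carries Rab27a and Rab11 vesicles, had 338 and 262 TPM in replicates 3 and 4, against 129 and 121 TPM in replicates 1 and 2. In counts its log2 fold change was 0.70 (SE 0.22, edgeR adjusted p = 0.112), which did not pass. Ehbp1l1, which binds Rab8 and Rab10, had 90.4 and 84.2 TPM in replicates 3 and 4, against 116 and 109.9 TPM in replicates 1 and 2, and Rilpl2, which binds Rabs phosphorylated by LRRK2, had 62.5 and 72.6 TPM in replicates 3 and 4, against 89.4 and 162 TPM in replicates 1 and 2. Of the listed synaptotagmin-like effectors of Rab27, Sytl3 averaged 0.735 TPM and passed the filter on low counts. The others were nearly silent, with Sytl1 and Sytl5 at 0, Sytl2 at a mean of 0.01 TPM and Sytl4 at 0.0125 TPM. Rims1 and Myrip were also at 0.

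Of the 123 partner genes that passed the filter, 3 were called between the libraries by edgeR (2.44%, against 5.80% of all genes tested). Rabac1, which aids removal of Rabs from the inhibitor, had 12 and 14.7 TPM in replicates 3 and 4, against 48.2 and 62 TPM in replicates 1 and 2, a log2 fold change of -2.04 in counts (SE 0.19, edgeR adjusted p = 0.0187). Tbc1d5, a Rab7 GAP of the retromer pathway, had 32.8 and 37.8 TPM in replicates 3 and 4, against 17.3 and 17.9 TPM in replicates 1 and 2, a log2 fold change of 0.89 (SE 0.15, edgeR adjusted p = 0.037). Unc13d, the Rab27 effector that primes granules for release, had 22.9 and 17.6 TPM in replicates 3 and 4, against 25.8 and 33.5 TPM in replicates 1 and 2, a log2 fold change of -0.76 (SE 0.14, edgeR adjusted p = 0.0449). Tbc1d5 was higher and the other two lower in replicates 3 and 4. With 1 replicate left out at a time, the log2 fold change of Rabac1 was -2.18 to -1.90. That of Tbc1d5 was 0.83 to 0.98 and that of Unc13d -0.82 to -0.69. Those fits leave a lone library on 1 side, so they cannot show whether the calls hold. With GC and length offsets the Unc13d call was not made (edgeR adjusted p = 0.0704). Nor was it made with effective length offsets (edgeR adjusted p = 0.119) or with limma on TPM (limma adjusted p = 0.198).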

How the data were processed

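PolyA RNA of 4 libraries was sequenced, per the labels. Gene and transcript tables deposited by the authors follow the RSEM column layout, with expected counts and TPM. A further deposited transcript table follows the kallisto layout, with estimated counts and TPM. The deposited notes name mm10 and GENCODE M21, and no source used here names the programs or their versions. Members and gene lists were chosen with earlier results of these data known. Gene totals and tests used 55536 GENCODE gene rows, left out 26345 others, 26248 of them with numeric identifiers, and 86 of those used had no symbol. Expected counts were rounded and tested in R 4.3.3 by the quasi-likelihood test of edgeR 4.0.16. Normalization was TMM, filterByExpr ran blind to the comparison (minimum count 10), and Benjamini-Hochberg adjusted p-values were called at 0.05. DESeq2 1.42.0 and limma 3.58.1 served as alternatives. The edgeR and DESeq2 steps were tested on simulated counts. Each fold change, in log2, sets replicates 3 and 4 over the other two. Paralog ratios used a pseudocount of 1 TPM, and ratios between quantifications used 0.01 TPM. Sequences, exons and 31-base words came from GENCODE M21. Values in every library are given for the 15 members of highest mean TPM, members of pairs with at least 1 mean TPM, called members, the 3 of largest and of smallest variation, the 3 differing most between quantifications each way, and the 3 most divided among transcripts. Of partner genes, the 3 highest in each role and all called are named, except 1 that is not reported here. Rab35, Rab43, the transcripts shown and other genes named beyond that were chosen after their values were seen. Summaries and figures were made with pandas 2.3.3, numpy 2.4.6, matplotlib 3.10.9 and scipy 1.17.1 under Python 3.11.15.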

Additional observations from a re-analysis of the deposited data

Results flagged for a closer look

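In 60 groups of 4 library values, 2 values stood apart from the other 3 by more than Dixon's test allows, which chance alone gives in about 1 of 20 groups. Rab24, linked to autophagy, had 51.38 TPM in replicate 2, against 30.9 to 34.3 TPM in the other libraries. Rab23, an inhibitor of Hedgehog signalling, had 1.02 TPM in replicate 1, against 1.67 to 1.71 TPM in the others. The low Rab23 value did not recur in the other quantification. By CPM replicate 1 was still the lowest, but close to replicate 2. In the kallisto-layout table Rab23 had 2.06 and 3.07 TPM in replicates 3 and 4, against 2.4 and 2.13 TPM in replicates 1 and 2, and by CPM it had 3.50 and 3.70 in replicates 3 and 4, against 2.62 and 2.77 in replicates 1 and 2.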

How the results depend on the processing

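No paired analysis was possible because the series has 1 group. The edgeR count of 2 called Rab members became 7 with DESeq2, 9 of 55 members (16.4%, against 11.7% of all genes so tested) without a filter on low counts, and 1 each with kallisto-layout counts and with GC and length offsets. It ranged from 0 to 3 when each replicate was left out, where the lone library of a side was assumed to vary like the others. Without replicate 3 or 4 no gene at all was called, and without replicate 1, 177 genes were. The count of 3 called partner genes became 14 with DESeq2 (11.4%, against 15.6% of all genes tested, those without an adjusted p included) and 23 without a filter (16.7%, against 11.7%). It became 5 with effective length offsets (4.07%, against 8.28%) and 5 with limma on log2(TPM + 1) (4.27%, against 7.98%), both added after seeing the data, as were the role counts by setting and the role sums without 1 member. It ranged from 0 to 3 when each replicate was left out. Other normalizations kept both counts at 2 and 3. Rab40c had log2 fold changes of 0.034 with effective length offsets and 0.024 with limma on TPM, opposite in sign to that in counts. Rab8b over Rab8a was 1.40 with coding transcripts alone. The Rab share of TPM was 0.421% over protein-coding nuclear genes and 0.504% in counts, and 0.353% to 0.373% when each replicate was left out. The median coefficient of variation ranged from 15.8% to 25.3% when each replicate was left out, and the median leading share was 88.5% in kallisto-layout tables. The causes were not tested. The 41 members expressed in every library became 40 to 44 under the alternatives.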
